A study of Homo sapiens with 8 samples.

Results

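RACK1 is a scaffold protein that sits near the mRNA exit side of the small (40S) ribosomal subunit. There it docks protein kinase C and signals of stalled or collided ribosomes. Mono-ADP-ribosylation (MARylation) attaches a single ADP-ribose to a protein. The question was how ribosome occupancy of mRNAs differs once the mapped acidic MARylation sites of RACK1 are lost. For this, ribosome footprints of cells with the site mutant (RACK1-Mut) were compared with those of cells with wild-type RACK1 (RACK1-WT). Ribosome profiling (Ribo-seq) sequences the stretches of mRNA that ribosomes shield from RNase, so a footprint count follows both the amount of an mRNA and how heavily it is translated.

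The cells were OVCAR3, an established line of human high-grade ovarian carcinoma. In both groups an shRNA under a doxycycline-inducible promoter depleted the cell's own RACK1, and an HA-tagged RACK1 cDNA, wild type or mutant, was switched on by the same drug. Cells of both groups received 1 µg/ml doxycycline for 48 h, and each group had 2 libraries. The groups are separate stably transduced lines, so the effect of the mutation and any other difference between the lines cannot be told apart, and the labels do not say whether replicates were separate cultures. P-values therefore measure only the spread between these libraries. In bulk cells, fewer cells with an mRNA and less of it per cell cannot be told apart either. The members described here are the 12520 of 20165 annotated gene regions that held at least 10 coding footprints summed over these 4 of the 8 libraries of the series. At the edge of that rule, 72 regions had exactly 10 footprints and were kept, and 87 had 9 and were not. Of the 7645 regions left out, 5567 had none. A siControl group of the same series (OVCAR3 cells given 30 nM of a control siRNA for 48 h, 2 libraries) is used below only for levels set side by side.

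The mutated residues were D144N, E145Q and D203N, numbered from the start methionine of the 317-residue protein. RACK1 lies on chromosome 5 of GRCh37, minus strand, and D144N and E145Q fall in exon 4 of its transcript ENST00000512805. The wild-type codons of this adjacent pair are shown because they are part of what separates the constructs. The capitals mark these codons in the reference sequence, at chr5:180666553-180666582.
RACK1 codons from residue 144: GATGAGagccactcagagtgggtgtcttgt
The deposited counts are per gene and do not tell a mutant from a wild-type codon.

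RACK1-WT libraries held 6604190 and 6174010 coding footprints, whereas RACK1-Mut libraries held 4174707 and 3798750, which limits the precision of the RACK1-Mut values most. All 8 listed epithelial and ovarian carcinoma markers had footprints in all 4 libraries. PAX8, a transcription factor of the Müllerian lineage, had 2156 to 3622 raw coding counts, and the keratin KRT8 had 10905 to 18607. WT1 was the lowest, with 259 to 409. Of the 8, 2 were lower and 6 higher in RACK1-Mut cells. KRT7 had 11012 and 11757 normalized counts against 9748 and 9929 in RACK1-Mut libraries (DESeq2 unadjusted p 0.00133, adjusted p 0.835). Markers of other cell types were at or near 0, with 0 to 2 raw counts each for PTPRC, CD3E, LYZ, DCN and CDH5 and 2 to 15 for COL3A1 and VWF. COL1A1 had 130 to 231, and PECAM1 had no region. The summed normalized count of these markers was 187.0 and 206.7 in RACK1-WT and 169.4 and 196.4 in RACK1-Mut libraries, so the groups overlapped.

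RACK1 itself was the most abundant of the called genes. Normalized coding counts (raw counts divided by DESeq2 size factors) were 23331 and 23592 in the RACK1-WT libraries and 17744 and 17273 in the RACK1-Mut libraries. The groups did not overlap and RACK1-Mut cells held 74.6% of the RACK1-WT level, a log2 fold change of -0.42 (SE 0.0601, DESeq2 adjusted p 1.34e-08). The direction was the same in each of the 4 fits that left out a library (-0.44 to -0.40), but the call was lost without either RACK1-Mut library (adjusted p 0.0919 and 0.242). Every comparison below is therefore one between cells that differ in the amount of RACK1 footprints as well as in its sites.

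The 5′ UTR of RACK1 behaved differently from its coding sequence. Per 1000000 coding footprints of a library (CPM), RACK1 coding footprints numbered 4571 and 4677 in RACK1-WT, 3563 and 3449 in RACK1-Mut, and 3331 and 3525 in siControl libraries. RACK1-Mut cells thus stood at 102% of the siControl mean and RACK1-WT cells at 135%. On the 5′ UTR the same scale gave 4.54 and 5.34 in RACK1-WT, 5.03 and 6.58 in RACK1-Mut, and 61.8 and 76.8 in siControl libraries, from 30, 33, 21, 25, 260 and 238 raw counts. Per 1000 coding footprints, RACK1 carried 0.994 and 1.14 footprints on its 5′ UTR in RACK1-WT, 1.41 and 1.91 in RACK1-Mut, and 18.5 and 21.8 in siControl cells. Coding footprints were as many as or more than in siControl cells, while 5′ UTR footprints were down to 7.14% (RACK1-WT) and 8.38% (RACK1-Mut) of the siControl mean. The siControl libraries belong to another experiment, and no test was made across experiments. The re-expressed RACK1 comes from a cDNA, and the counts do not record which mRNA a coding footprint came from. Between RACK1-Mut and RACK1-WT, the 5′ UTR counts differed by a log2 fold change of 0.21 (SE 0.524, 95% interval -0.82 to 1.23, adjusted p 0.999).

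**Figure D1:**
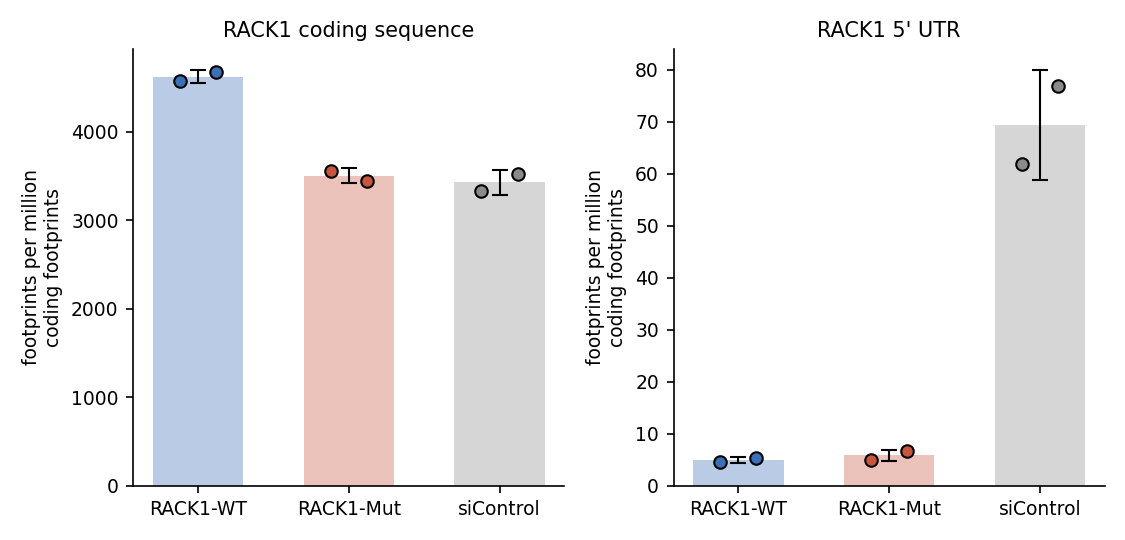
RACK1 footprints on the coding sequence (left) and the 5′ UTR (right), in CPM (footprints per 1000000 coding footprints of a library). Points are libraries, bars are means and error bars are SDs (n = 2). The RACK1-WT and RACK1-Mut libraries sit at 4.54 to 6.58 on the 5′ UTR against 61.8 and 76.8 in siControl cells, while their coding footprints are level with or above those of siControl cells.

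Across the coding sequences, few genes moved beyond the spread between libraries. DESeq2 called 10 of 12520 regions (0.0799%), all of them lower in RACK1-Mut cells, and 125 regions (0.998%) were lower and 80 (0.639%) higher at an unadjusted p under 0.05 (1.64% in all, and 7.48% by edgeR). edgeR's quasi-likelihood test called 24 regions lower (0.192%) and 6 higher (0.0479%), with the 10 among them. Of the 9055 regions whose normalized count averaged 50 or more, 61 (0.674%) had a log2 fold change above 0.5 in size, 29 lower and 32 higher, and the median size was 0.093. Both RACK1-Mut libraries lay below both RACK1-WT libraries for 18.8% of all regions tested and above them for 18.7%. The plot of fold change by level shows the called regions as a group below 0.

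**Figure D2:**
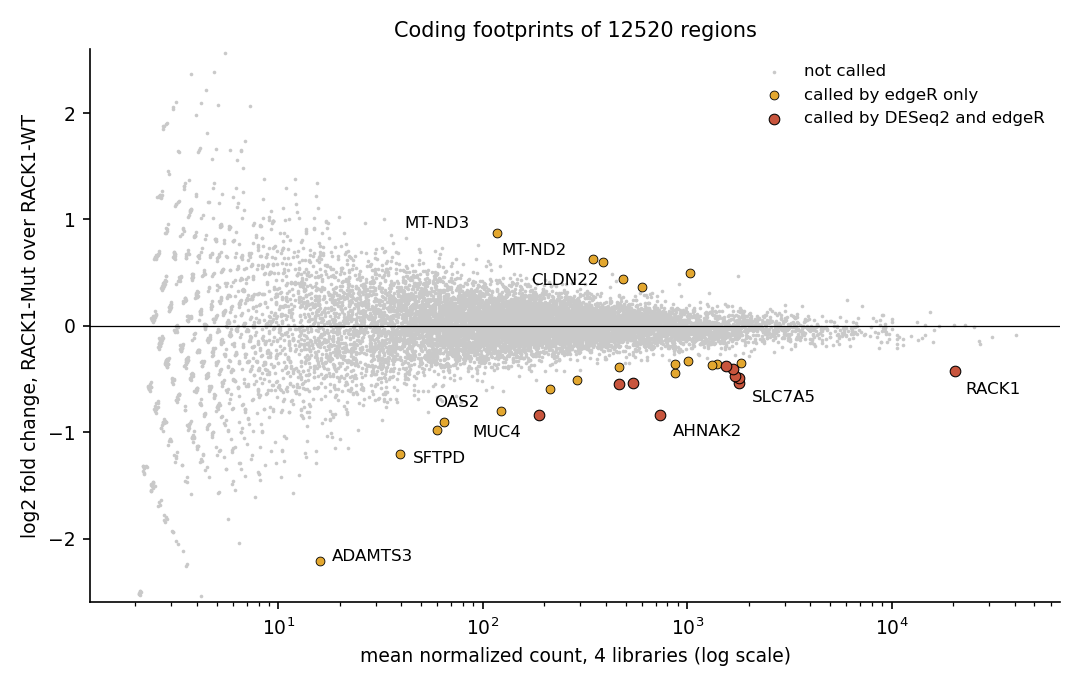
Log2 fold change of coding footprints (RACK1-Mut over RACK1-WT) against the mean normalized count of the 4 libraries on a log axis, 1 point per region. Red points were called by DESeq2 and edgeR and lie between -0.84 and -0.38. Orange points were called by edgeR only, and 20 regions lie beyond the axis limit of 2.6.

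Among the genes DESeq2 called and described here, AHNAK2 and MUC4 fell most. AHNAK2, a giant scaffold protein, had 952.1 and 947.7 normalized counts in the RACK1-WT libraries and 569.0 and 493.0 in the RACK1-Mut libraries (region of ENST00000333244, log2 fold change -0.84, SE 0.114, adjusted p 3.03e-09). MUC4, a membrane mucin, had 245.7 and 236.9 against 128.8 and 142.4 (log2 fold change -0.83, SE 0.195, adjusted p 0.0268). They stood at 55.9% and 56.2% of RACK1-WT, with no overlap between groups. AHNAK2 lost its call only without RACK1-Mut replicate 2 (adjusted p 0.0514), and without RACK1-WT replicate 1 DESeq2 gave it no adjusted p. GDA, guanine deaminase, which turns guanine into xanthine in purine breakdown, had 653.0 and 628.3 against 448.5 and 433.7 (log2 fold change -0.54, SE 0.123, adjusted p 0.0184). All 3 were also the called genes that the siControl cells scarcely had. AHNAK2 had 22 and 12 raw counts in siControl libraries, MUC4 had 10 and 12, and GDA had 6 and 0, against 1232 and 1160, 318 and 290, and 845 and 769 in RACK1-WT libraries. How far such differences between lines enter the fall in RACK1-Mut cells was not tested. MUC4 and GDA lost their calls with the replicate number as a block (adjusted p 1 and 0.91) and after thinning to equal totals (0.0758 for each), and MUC4 also without the count filter (0.0541). Neither held a call with any library left out, where log2 fold changes ran from -0.905 to -0.763 for MUC4 and from -0.566 to -0.51 for GDA. Without RACK1-WT replicate 1 DESeq2 gave neither an adjusted p.

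No other member of these gene families was called by DESeq2. AHNAK, the paralog of AHNAK2, had 11855 and 10025 normalized counts in RACK1-WT and 10638 and 9999 in RACK1-Mut libraries, so the groups overlapped (log2 fold change -0.08, SE 0.0821). Among 33 genes for AHNAK proteins, annexins, S100 partners and large cytoskeletal linkers, AHNAK2 was the 1 called, against 0.0799% of all regions. The median log2 fold change was -0.08, and 27 were lower (81.8%, against 50.4% of all regions). At an unadjusted p under 0.05, 4 were lower (12.1%, against 0.998% of all regions) and none higher. S100A10 (-0.30, unadjusted p 0.00518), S100A4 (-0.35, p 0.018) and ANXA2 (-0.15, p 0.0208) did not pass adjustment. ANXA2, an annexin that binds S100A10 at the membrane, had 17373 and 16017 against 14968 and 15079 normalized counts. Among 38 mucins and ovarian carcinoma surface genes the median was -0.01 (21 lower, 55.3% against 50.4% of all regions). MUC16, which carries the CA125 antigen, had 6478 and 4567 in RACK1-WT libraries and 6498 and 6536 in RACK1-Mut libraries (0.24, SE 0.232). The tight junction gene CLDN3 had 1066 and 1208 against 1521 and 1302 (0.31), with an unadjusted p of 0.00283 that did not pass adjustment. Among 24 genes of purine breakdown and salvage, GDA was the 1 called and the median was -0.01. It was also the 1 lower at an unadjusted p under 0.05 (4.17%, against 0.998% of all regions).

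Genes that interferons induce were lower as a group in RACK1-Mut cells. Interferons bind cell surface receptors and switch on antiviral genes through interferon-stimulated response elements in their promoters. Of 63 interferon-stimulated genes tested, 56 (88.9%) had a log2 fold change below 0, against 50.4% of all regions, and the median was -0.21 against 0.00. DESeq2 called 3 of them lower (4.76%, against 0.0799% of all regions) and none higher. At an unadjusted p under 0.05, 14 were lower (22.2%), against 0.998% of all regions. Both RACK1-Mut libraries were below both RACK1-WT libraries for 42 of the 63 (66.7%). Median levels over the list were 101% and 98.6% of the RACK1-WT mean in the RACK1-WT libraries and 87.1% and 86.9% in the RACK1-Mut libraries, so the shift was of like size in both RACK1-Mut libraries.

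IFI6, an interferon-induced protein of mitochondria and the endoplasmic reticulum, had 2066 and 2096 normalized counts in RACK1-WT and 1414 and 1559 in RACK1-Mut libraries (log2 fold change -0.49, SE 0.0865, adjusted p 5.93e-05). IFI27 had 537.1 and 564.5 against 367.4 and 384.9 (log2 fold change -0.55, SE 0.131, adjusted p 0.033). In both, each RACK1-Mut library was below each RACK1-WT library. IFI6 lost its call without RACK1-WT replicate 2 (adjusted p 0.179), RACK1-Mut replicate 1 (1) or RACK1-Mut replicate 2 (0.101). IFI27 lost its call with the replicate block (adjusted p 1), after thinning (0.0758) and without the count filter (0.0541). It held no call with any library left out, where its log2 fold change ran from -0.586 to -0.514. Without RACK1-WT replicate 1 DESeq2 gave it no adjusted p. MX1, a GTPase that traps viral nucleocapsids, had 1069 and 949.3 against 707.4 and 781.7 (-0.44), and its adjusted p was 0.0683 in DESeq2 and 0.00184 in edgeR. OAS2 belongs to the synthetases that make the activator of RNase L. It had 161.5 and 151.1 against 83.5 and 96.23 (-0.80, adjusted p 0.619 in DESeq2 and 0.00231 in edgeR). OAS1 (-0.32, unadjusted p 0.00707), OAS3 (-0.35, p 0.00756), PLSCR1 (-0.28, p 0.00463), IFI44 (-0.41, p 0.00956) and IRF7 (-0.51, p 0.0099), named after their values were seen, did not pass adjustment in either tool. IFI6 was also among the 4 members with the highest counts, of which LGALS3BP and DTX3L were not called. LGALS3BP, a secreted glycoprotein, had 8436 and 9057 against 7972 and 8325 (-0.10), and DTX3L, the ubiquitin ligase partner of PARP9, had 1524 and 1431 against 1513 and 1548 (0.05). IFI6 was lower in RACK1 lines of both kinds than in siControl cells, at 405 and 416 (RACK1-WT) and 284 and 311 (RACK1-Mut) against 1089 and 893 CPM. IFI27 stood at 105 and 112, 73.8 and 76.9, and 94.8 and 83.5 on that scale.

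A motif of the response element kind was looked for in the promoters of these genes. The motif, GAAA followed after any 2 bases by a further GAAA on either strand, was searched in RefSeq windows from 250 bases before to 50 bases after a gene's start (GRCh38.p14). It was found in 26 of the 49 tested interferon-stimulated genes with a window (53.1%), against 1195 of 27305 genes (4.38%). The list was chosen for induction by interferon, so a share above that of all genes comes with the list and says nothing about RACK1-Mut. Of the 33 that were lower in both RACK1-Mut libraries than in both RACK1-WT libraries, 20 (60.6%) held it, and of the other 16 it was held by 6 (37.5%). That split was made from these same data, and the difference between its parts was not tested. Windows are shown for genes named above, with the motif in capitals, at chr1:27672329-27672358, chr1:27672266-27672295, chr14:94110631-94110660, chr21:41420559-41420588 and chr12:112938452-112938481, in the order of the lines. Each is written 5′ to 3′ on the gene's strand, which is minus for IFI6 and plus for the others.
IFI6, motif from 156 bases before the start: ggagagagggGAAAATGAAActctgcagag
IFI6, motif from 93 bases before the start: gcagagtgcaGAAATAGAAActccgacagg
IFI27, motif from 95 bases before the start: cggtttcctgGAAAATGAAAcctatctcat
MX1, motif from 11 bases after the start: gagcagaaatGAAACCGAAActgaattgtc
OAS3, motif from 12 bases before the start: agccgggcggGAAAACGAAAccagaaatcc
No match was found for OAS2 or for the called genes CD74, SLC7A5, GDA, MUC4 and AHNAK2, but whether each of them had a window was not recorded. A match is not a measured binding site.

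CD74, the invariant chain that guides MHC class II molecules, was lower too. It had 1716 and 1783 normalized counts in RACK1-WT and 1337 and 1352 in RACK1-Mut libraries (log2 fold change -0.38, SE 0.0861, adjusted p 0.0184). The replicates lay close together within each group and the groups did not overlap, but the call was lost with the replicate block (adjusted p 0.647) and without each library in turn (0.0756 to 1). Of 32 genes for MHC molecules and antigen processing, 23 were lower (71.9%, against 50.4% of all regions) and 9 higher. Their log2 fold changes ran from -1.18 to 0.79, with a median of -0.12 (-0.19 to -0.06 when each library was left out). At an unadjusted p under 0.05, 3 were lower (9.38%, against 0.998% of all regions). The class I heavy chain HLA-B (1164 and 1315 against 974.6 and 1088, -0.27) and its light chain B2M (3559 and 3633 against 3373 and 3222, -0.12) were not called. CIITA, the master regulator of class II genes and chosen after its values were seen, had 14.68 and 25.33 against 16.7 and 23.73, too few counts to resolve a change. Reads of class I genes can be shared between near-identical copies, so their counts are uncertain.

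The list of ATF4 and its targets was also mostly lower. ATF4 is the transcription factor of the integrated stress response, and its own mRNA is held back by upstream open reading frames (uORFs) until initiation is limited. SLC7A5, the light chain of the large neutral amino acid transporter, had 2162 and 2083 normalized counts in RACK1-WT and 1343 and 1588 in RACK1-Mut libraries (log2 fold change -0.54, SE 0.0942, adjusted p 5.36e-05). Its heavy chain SLC3A2 had 2827 and 2967 against 2393 and 2509 (-0.24, adjusted p 0.999). SLC7A5 lost its call without RACK1-WT replicate 2 (adjusted p 0.0592) or RACK1-Mut replicate 1 (1). PSAT1, of serine synthesis, had 2100 and 2011 against 1534 and 1693 (-0.35), with an adjusted p of 0.0619 in DESeq2 and 0.00757 in edgeR. The serine enzymes SHMT2 (-0.28, unadjusted p 0.00107) and PHGDH (-0.19, p 0.0086) did not pass adjustment, though their groups did not overlap. Other abundant transporters of the list were not called, with 3549 and 3396 against 3753 and 3302 for SLC38A2 (0.02) and 3023 and 3174 against 2812 and 2930 for SLC1A5 (-0.11). Of 53 genes for ATF4 and its targets, 42 (79.2%) had a log2 fold change below 0, against 50.4% of all regions, with a median of -0.14. SLC7A5 was the 1 called by DESeq2 (1.89%, against 0.0799% of all regions). At an unadjusted p under 0.05, 10 were lower (18.9%, against 0.998% of all regions) and 1 higher (1.89% against 0.639%). Both RACK1-Mut libraries were below both RACK1-WT libraries for 33 of 53 (62.3%), against 18.8% of all regions. Median levels over the list were 102% and 98.4% of the RACK1-WT mean in RACK1-WT and 89.1% and 91.7% in RACK1-Mut libraries.

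For ATF4 itself, coding footprints were lower by edgeR alone, while footprints on the 5′ UTR, where its uORFs lie, overlapped between groups. On the coding sequence ATF4 had 519.3 and 532.7 normalized counts in RACK1-WT and 394.8 and 408.6 in RACK1-Mut libraries (log2 fold change -0.39, SE 0.13), which edgeR called (adjusted p 0.0473) and DESeq2 did not (adjusted p 1). On the 5′ UTR it had 365.5 and 401.1 against 373.4 and 411.3, with a log2 fold change of 0.03 (95% interval -0.38 to 0.45). Exon counts, which join both compartments, gave -0.19 for ATF4. Per 100 coding footprints the 5′ UTR of ATF4 held 70.4 and 75.3 in RACK1-WT and 94.6 and 101 in RACK1-Mut cells. Each RACK1-Mut library was above each RACK1-WT library. The test of that ratio gave a log2 change of 0.42 (SE 0.519, 95% interval -0.60 to 1.44, adjusted p 1), so the difference in ratio was not resolved. Over the 32 uORF mRNAs tested, ATF4 among them, the median change in the ratio was -0.07, with 14 above 0, against a median of -0.03 over all 6116 regions tested, of which 35 had an unadjusted p under 0.05 (0.572%) and 0 were called. DDIT3, a stress factor behind a uORF, had 114 and 81.6 footprints on its 5′ UTR per 100 coding footprints in RACK1-WT and 169 and 95.3 in RACK1-Mut libraries. PPP1R15B, a regulatory phosphatase subunit, had 33.4 and 40.0 against 32.0 and 42.2.

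**Figure D3:**
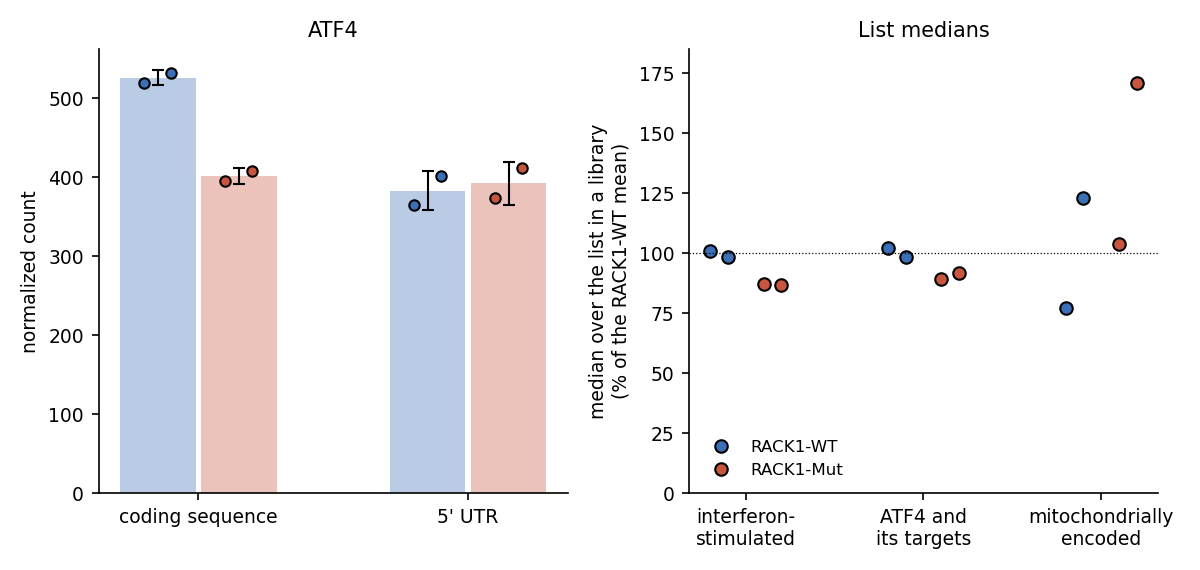
Left: normalized counts of ATF4 on the coding sequence and 5′ UTR, with bars as means, points as libraries and error bars as SDs (n = 2). Right: median over a gene list in each library, in percent of the RACK1-WT mean. The coding counts of ATF4 are lower in RACK1-Mut cells while the 5′ UTR counts overlap, and the mitochondrially encoded medians of both groups overlap.

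Mitochondrially encoded genes were higher, but libraries of 1 group differed from each other as much as the groups did. These 13 mRNAs encode respiratory chain subunits and are read by mitochondrial ribosomes, which do not contain RACK1. All 13 had a log2 fold change above 0, with a median of 0.47. None was called by DESeq2, and 1 passed an unadjusted p under 0.05. By edgeR 4 were called higher. The median over the list was 77.2% and 123% of the RACK1-WT mean in the RACK1-WT libraries and 104% and 171% in the RACK1-Mut libraries, so RACK1-Mut replicate 1 lay between the RACK1-WT libraries. Replicate 1 minus replicate 2 gave a median log2 difference of -0.667 in RACK1-WT and -0.669 in RACK1-Mut cells. RACK1-Mut minus RACK1-WT gave 0.465 and 0.475 between same-numbered libraries, and -0.252 and 1.165 across numbers. Whether same-numbered libraries belong together is not given by the labels. MT-CO1, a core subunit of cytochrome oxidase, had 1004 and 1960 normalized counts in RACK1-WT and 1516 and 2581 in RACK1-Mut libraries. The median without RACK1-Mut replicate 2 was 0.06, and with other libraries left out it reached 0.89.

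The genes that the study ties to RACK1 MARylation were next examined. For AKT1 the study reports a change in translation, with translation efficiency taken as footprints divided by RNA-seq level. The counts here are footprints alone, so they do not measure the same quantity. AKT1, a survival kinase, had 228.7 and 250.8 normalized counts in RACK1-WT and 167.0 and 204.3 in RACK1-Mut libraries (log2 fold change -0.37, SE 0.187, unadjusted p 0.0473, adjusted p 1). Its groups did not overlap, and it was not called by either tool. Leaving out RACK1-Mut replicate 1 gave -0.23 and leaving out RACK1-Mut replicate 2 gave -0.52. Of 61 genes for AKT, PI3K, mTOR and receptor tyrosine kinases, none was called by DESeq2 or edgeR, 3 had an unadjusted p under 0.05 in DESeq2 and 4 in edgeR, and the median was 0.01. Over all regions 0.0799% were called by DESeq2 and 0.24% by edgeR, and 1.64% and 7.48% had an unadjusted p under 0.05. The receptor EPHA2 had 2065 and 2024 against 1612 and 1811 (-0.26, p 0.00316), the PI3K subunit PIK3CB had 287.5 and 236.1 against 335.2 and 332.2 (0.35, p 0.0312), and AKT2 had 1294 and 1339 against 1249 and 1294 (-0.05). PARP14, the transferase that the study names for RACK1, had 1505 and 1491 against 1420 and 1475 (-0.05, 95% interval -0.22 to 0.12). OARD1, the gene of the hydrolase TARG1, had 124.4 and 116.0 against 109.7 and 109.4 (-0.13, 95% interval -0.60 to 0.33). G3BP1, the nucleator of stress granules, had 2287 and 2163 against 2237 and 2080 (-0.04, 95% interval -0.20 to 0.12, and 0.01 without RACK1-Mut replicate 2). Over 28 ADP-ribosylation enzymes and erasers the median was -0.05, with none called by either tool, none at an unadjusted p under 0.05 in DESeq2 and 5 in edgeR. Of these 5, 4 were lower (14.3% of the list, against 3.58% of all regions) and 1 higher (3.57% against 3.9%). Both RACK1-Mut libraries were below both RACK1-WT libraries for 13 of the 28 (46.4%, against 18.8% of all regions) and above for 4 (14.3% against 18.7%). PARP2, a DNA-repair polymerase, had 184.7 and 164.2 against 143.1 and 123.9 (-0.38, unadjusted p 0.0718).

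**Figure D4:**
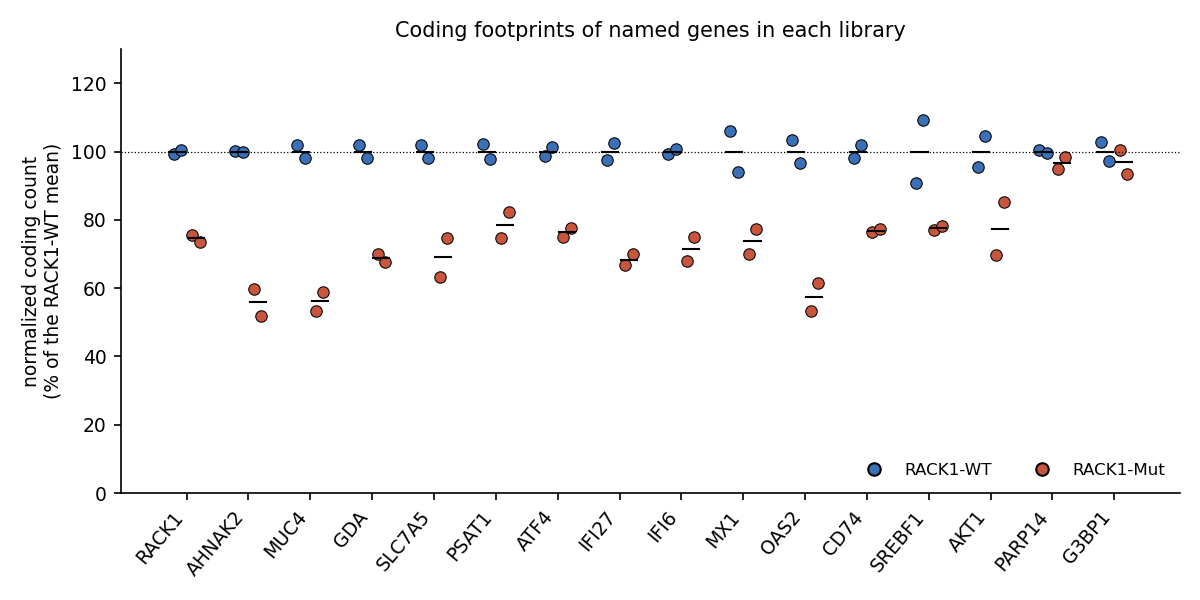
Normalized coding counts of 16 named genes in each library, in percent of the RACK1-WT mean of that gene. Points are libraries and short lines are group means (n = 2). The RACK1-Mut points of AHNAK2, MUC4 and OAS2 are lowest, while PARP14 and G3BP1 lie near 100%.

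In the translation machinery that RACK1 works within, no ribosomal protein, translation factor or collision gene was called by either tool. Over all regions 0.0799% were called by DESeq2 and 0.24% by edgeR, so lists of this size could hold none at that share. Over 82 cytosolic ribosomal proteins the median log2 fold change was -0.01, with quartiles of -0.03 and 0.04. Over 50 translation factors the median was -0.02 (34 lower, 68.0% against 50.4% of all regions). EEF1A1, the elongation factor that delivers tRNA, had 27041 and 23701 against 24393 and 25848 normalized counts. RACK1 is needed for the response to collided ribosomes, and 35 genes of that response and of ribosome quality control had a median of 0.00. Among them the collision-linked ubiquitin ligase MKRN1 had 638.3 and 660.1 against 747.9 and 736.9 (0.19, unadjusted p 0.0786), and the kinase EIF2AK4 had 160.0 and 142.2 against 169.4 and 187.2 (0.24, p 0.245). None of the 35 had an unadjusted p under 0.05 in DESeq2, and 1 did in edgeR. Over 42 stress granule proteins the median was 0.00, with 0 at an unadjusted p under 0.05 in DESeq2 and 4 in edgeR. The shares over all regions were 1.64% and 7.48%. Among 34 RACK1 partners and protein kinase C genes, RACK1 led the 2 that were called, and the median was -0.02. PRKCI, an atypical protein kinase C, had 1559 and 1427 against 1833 and 1552 (0.18, unadjusted p 0.0665).

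The remaining lists moved by less than the interferon and ATF4 lists. Over 55 DNA replication genes the median was -0.06, with 42 lower (76.4%, against 50.4% of all regions). At an unadjusted p under 0.05, 1 was lower (1.82%, against 0.998% of all regions). PCNA, the replication clamp, had 1285 and 1299 against 1164 and 1144 (-0.16). Of the 1811 regions with the highest mean normalized count (604 or more), 36.7% had a log2 fold change above 0, with a median of -0.03. List medians were not matched for level. Over 25 cholesterol synthesis genes the median was -0.04. SREBF1, a regulator of lipid synthesis, led them with 1353 and 1625 against 1148 and 1164 (-0.36), an adjusted p of 0.383 in DESeq2 and 0.0116 in edgeR. Without RACK1-WT replicate 1 DESeq2 called it (-0.49, adjusted p 0.0155), and without RACK1-WT replicate 2 the value was -0.23. Over 35 endoplasmic reticulum chaperones and genes of the unfolded protein response the median was 0.02, with 0 at an unadjusted p under 0.05 in DESeq2 and 0 in edgeR (1.64% and 7.48% of all regions). HSPA5, the main chaperone of that compartment, had 10497 and 9864 against 10057 and 9884 (-0.03). Over 37 uORF mRNAs the median of coding footprints was -0.01.

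**Figure D5:**
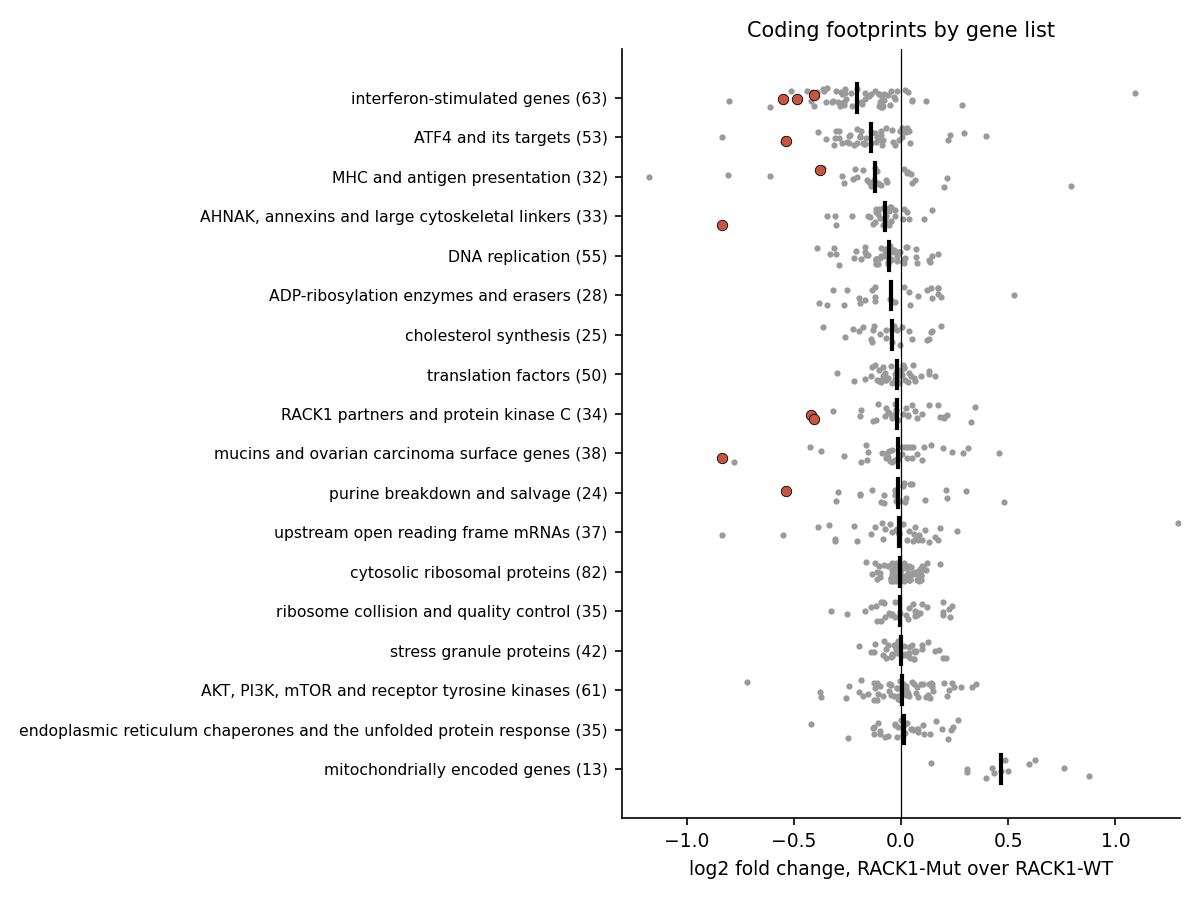
Log2 fold change of coding footprints (RACK1-Mut over RACK1-WT) for the members of 18 gene lists, with the number tested in brackets. Red points were called by DESeq2, black bars are medians, and 1 member lies beyond the axis limit of 1.3. The median is lowest for interferon-stimulated genes at -0.21 and highest for mitochondrially encoded genes at 0.47.

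Some genes outside the lists were called by edgeR alone. ADAMTS3, a procollagen protease, had 27.82 and 24.51 normalized counts in RACK1-WT and 4.772 and 6.591 in RACK1-Mut libraries, which is 21.7% of RACK1-WT from few reads (edgeR adjusted p 0.00757, DESeq2 adjusted p 1). The surfactant protein SFTPD (51.0 and 58.82 against 25.05 and 22.41) and the acute phase genes SAA1 (63.37 and 94.77 against 38.17 and 42.18) and SAA2 (68.01 and 100.5 against 48.91 and 40.86) were lower. SAA1 and SAA2 are near-identical copies whose counts are uncertain, since they can share reads. The adhesion molecule NCAM1 (346.2 and 328.4 against 244.5 and 230.7) and the keratin KRT4 (253.5 and 257.4 against 143.1 and 196.4) were lower as well. Higher were the claudin CLDN22 (415.0 and 407.7 against 601.2 and 515.4, edgeR adjusted p 0.00833) and the serine protease PRSS23 (539.4 and 518.0 against 719.3 and 640.7, edgeR adjusted p 0.0423). In each of these the groups did not overlap, and none was called by DESeq2. Of regions without a symbol, ENST00000379389, called by both tools, had 1990 and 1987 against 1408 and 1471 (log2 fold change -0.47, SE 0.084, DESeq2 adjusted p 6.79e-05). ENST00000263816 had 1600 and 1529 against 1254 and 1188 (-0.36, adjusted p 0.0687 in DESeq2 and 0.00832 in edgeR). Lists were matched by symbol, so regions without one could not enter any list. Of 68 interferon-stimulated genes listed, 66 were matched to a region.

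Footprints outside coding sequences were few and unevenly spread over genes. The 5′ UTR share of footprints was 4.15% and 4.22% in RACK1-WT and 3.85% and 3.97% in RACK1-Mut libraries, and the 10 regions with most 5′ UTR counts held 39.0% to 50.9% of those counts. Without these 10 the shares were 2.09% and 2.53% against 2.21% and 2.47%, and the groups overlapped (exact two-sided permutation p 1, where the smallest the design allows is 0.33). Among them MTRNR2L1, a nuclear copy of mitochondrial ribosomal RNA sequence, held 5.64% to 7.08%. Of 6257 regions tested, DESeq2 called 0 on the 5′ UTR, with 16 at an unadjusted p under 0.05 (0.256%) and 231 by edgeR (3.69%), which called 0 (0.0%). The lowest unadjusted p was that of PKM, pyruvate kinase, with 411.1 and 432.2 normalized counts on its 5′ UTR in RACK1-WT and 175.4 and 288.7 in RACK1-Mut libraries (-0.86, unadjusted p 0.000811, adjusted p 0.999).

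On the 3′ UTR, 1 of 1912 regions tested (0.0523%) was called by DESeq2, with 7 at an unadjusted p under 0.05 (0.366%). edgeR called 0, with 84 at an unadjusted p under 0.05 (4.39%). Its scaling came from the 3′ UTR counts themselves and that of DESeq2 from coding counts, so the tools differ in scale as well as in test. TMC5, which belongs to the transmembrane channel-like family, had 2493 and 3021 raw 3′ UTR counts in RACK1-WT and 4680 and 6520 in RACK1-Mut libraries, which is 1927, 2468, 5583 and 8595 after normalization (log2 fold change 1.69, SE 0.283, adjusted p 4.45e-06 in DESeq2 and 0.963 in edgeR). Its coding sequence held 5 to 10 raw counts in each of these libraries, so the 3′ UTR signal came almost without coding footprints. The siControl libraries had 13949 and 22742 on that 3′ UTR. TMC5 held 5.39% and 6.46% of all 3′ UTR footprints in RACK1-WT and 14.2% and 20.3% in RACK1-Mut libraries. The call was lost without RACK1-Mut replicate 2.

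Small shifts across many genes were then set against mRNA features, over the same 9055 regions, split into 5 bins of 1811 regions by each feature. These are descriptions across genes, which are not independent replicates. By 3′ UTR length the median log2 fold change rose from -0.03 in the bin of up to 383 nt to 0.04 in the bin of 3072 nt and more. The same bins differed between the RACK1-WT libraries, from -0.023 to 0.042, a trend of like size. Between the RACK1-Mut libraries they ran from -0.014 to 0.015. Each pairing of a RACK1-Mut with a RACK1-WT library rose from the shortest to the longest bin, the least of them from -0.017 to 0.013. By the number of 5′ UTR footprints per 100 coding footprints, the median was -0.02 in the lowest bin (up to 0.2114) and 0.04 in the highest (5.76 and more). In the highest bin each pairing of a RACK1-Mut with a RACK1-WT library gave a median between 0.03 and 0.04, whereas replicates differed by 0.00 in RACK1-WT and 0.01 in RACK1-Mut cells. Level went with this feature, as the median count was 142 in that highest bin and 242 in the lowest. Within each of 5 bins of the mean normalized count, regions with most 5′ UTR footprints had the higher median, from 0.04 against 0.01 in the lowest bin of level to -0.01 against -0.04 in the highest. For those regions in the highest bin of level, pairings gave -0.019 to 0.021, while the RACK1-WT libraries differed by 0.036. In the lowest bin pairings gave 0.016 to 0.076, and replicates differed by -0.04 (RACK1-WT) and 0.034 (RACK1-Mut). In the middle bin pairings gave 0.045 to 0.059, and replicates differed by 0.01 and 0.002. By coding length no bin had a median beyond 0.01 in size, and by 5′ UTR length they ran from -0.01 to 0.01. By level itself the median was 0.02 in the lowest bin and -0.03 in the highest, where 36.7% of regions were above 0.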

How the data were processed

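Ribosome-protected fragments were counted in 4 libraries, 2 of RACK1-WT and 2 of RACK1-Mut, with 2 siControl libraries for levels. Per the file headers, the authors deposited raw read counts and RPKM for each gene region, split into 5′ UTR, coding and 3′ UTR. The counts were made with Plastid from reads of 26 to 36 nt assigned 14 nt from the 5′ end, on GENCODE annotation of GRCh37. An offset counted from the other end is given in the methods, and which was used could not be settled. The submitters' processing notes name Bowtie 1.1.2 and TopHat2 2.1.1. Collapse of reads by molecular identifier is not given in the sources used here, and near-identical copies can share reads. The deposited RPKM values were not used.

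Regions with at least 10 coding counts over the 4 libraries were tested with DESeq2 1.42.0 (Wald test, Benjamini-Hochberg adjustment over all regions, threshold 0.05) in R 4.3.3, with edgeR 4.0.16 as an alternative. All adjusted p-values are from DESeq2 unless edgeR is named. In DESeq2 the UTR counts used the coding size factors, whereas edgeR scaled them by factors from the UTR counts themselves. Per-million values were divided by coding totals. The code was tested on simulated data. Symbols were found for 19612 of 20165 regions (97.3%), and 553 without one keep their identifier. Promoter sequences are RefSeq's (GRCh38.p14).

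Members and gene lists were chosen with earlier results of these data known. Named genes are RACK1, AKT1, PARP14, OARD1, G3BP1, those called by DESeq2 or edgeR, up to 4 per list by smallest p and 4 by highest count, and in the UTR tests the called genes and the upstream open reading frame list. Others, among them PKM, MTRNR2L1 and the windows' genes, were chosen after their values were seen. Of the 10 called regions, 1 is not reported here, nor are some other items. Same-numbered libraries had deviations from their group means that correlated at r = 0.083 over 9055 regions, so replicate numbers were not taken as pairs.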

Additional observations from a re-analysis of the deposited data

How the results depend on the processing

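The 10 coding calls became 30 with edgeR (24 lower and 6 higher, the 10 among them) and 6 with the replicate block (5 lower and 1 higher, 5 shared with the 10). Under the other settings the number lay within 1.5 times of 10. Leaving out each library in turn gave 1 to 7 calls, with 2 without RACK1-WT replicate 2 and 1 without either RACK1-Mut library, where the lone library was assumed to vary like the others. On the 3′ UTR, edgeR gave 0 calls, and leaving out a library gave 0 to 1. The 5′ UTR share difference of -0.272 percentage points became 0.0303 without the 10 largest regions and -0.0437 as a median over regions. The 3′ UTR difference of 0.0862 became 0.0127 and -0.153. G3BP1 turned to 0.008 without RACK1-Mut replicate 2, within -0.098 to 0.008 when each library was left out. The same fits gave 0.195 to 0.421 for CLDN3, -0.183 to -0.082 for OARD1 and -0.077 to -0.024 for PARP14, none of them called.

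The median of the interferon-stimulated list stayed between -0.22 and -0.19 in every setting run, and no list's called gene changed sign. Small list medians moved. After thinning, mucins gave 0.002, AKT and receptor kinases 0.031, and cholesterol synthesis -0.053. Collision genes gave 0.028 with exon counts. With members of a mean of at least 50, an alternative added after the data were seen, collision genes gave 0.023 and AKT and receptor kinases 0.016. Leaving out each library gave -0.165 to -0.098 for ATF4 targets, -0.187 to -0.063 for MHC genes, -0.048 to 0.041 for cytosolic ribosomal proteins, -0.023 to 0.007 for RACK1 partners, -0.054 to 0.028 for mucins, -0.11 to -0.043 for AHNAK and annexins, -0.069 to 0.017 for translation factors, -0.021 to 0.019 for collision genes, -0.01 to 0.032 for AKT and receptor kinases, -0.041 to 0.044 for stress granules, -0.115 to -0.002 for ADP-ribosylation, -0.063 to -0.045 for cholesterol synthesis, 0.0 to 0.035 for the endoplasmic reticulum, -0.073 to -0.048 for DNA replication, -0.037 to -0.005 for purines and -0.017 to 0.023 for upstream open reading frame mRNAs. The cause was not tested. Depth limits genes under about 50 counts, such as ADAMTS3.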
